A study of Mus musculus with 5 samples.

Results

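The immunity-related GTPases (IRGs) measured here were Irgm1, Irgm2, Igtp, Iigp1, Ifi47, Tgtp1 and Tgtp2. They were taken by gene symbol from the feature lists of the deposited matrices, where they made up 7 of 31053 genes in the heart libraries and in the lymph node library. The series addressed the relation between ageing of the heart, ageing of the immune system and interferon gamma responses. The heart libraries held non-cardiomyocyte cells of C57BL/6 mice at 18 months and at 2 months of age, with 1 library per age and ageing as the only treatment named in the labels. A further library held sorted CD4+ and CD8+ T cells of mediastinal lymph nodes, pooled from C57BL/6 mice of 2, 6, 12 and 18 months and marked with 8 antibody hashtags. The hashtag of each lymph node cell was read, but no source used here ties a hashtag to an age, and no lymph node value was assigned to an age. Part of the heart cells carried a hashtag as well, 11 or 12 at 18 months and 9 or 10 at 2 months. The number of animals behind each library was likewise not stated. Both heart libraries held cells with Xist and cells with Y-linked transcripts, so each mixed cells of both sexes. Cells were sorted and then combined at different ratios before loading, so counts of cells per class do not give the makeup of the tissue.

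IRGs are interferon-inducible GTPases of cell-autonomous defence against intracellular pathogens. In mouse cells the regulators Irgm1, Irgm2 and Igtp (also called Irgm3) sit on endomembranes and keep the effector GTPases inactive there. The effectors Iigp1 (Irga6), Ifi47 (Irgd), Tgtp1 and Tgtp2 (both Irgb6) load onto pathogen vacuoles, aided by the ATG8 conjugation machinery of autophagy, and are induced strongly by interferon gamma, in part through the transcription factor IRF1. Endothelial cells, macrophages and T cells are all known to respond to interferon gamma.

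On the GRCm38 annotation 6 of the members lie on chromosome 11. Irgm1 (48861968 to 48871683, minus strand), Tgtp1 (48985327 to 48994172, minus strand), Tgtp2 (49057194 to 49064206, minus strand) and Ifi47 (49076587 to 49096974, plus strand) form one group there. Igtp (58199556 to 58207591) and Irgm2 (58199618 to 58222782) form another, both on the plus strand, and share 162 exonic bases, 8.01% of the exonic bases of Igtp and 4.39% of those of Irgm2. The Tgtp1 and Tgtp2 transcripts were identical at 2804 of 2810 aligned bases (99.8%), so the split of reads between this pair is uncertain.

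Promoter stretches are shown because these genes are read here as an interferon-inducible family, and the binding motifs of the interferon-activated factors can be looked up in them. RefSeq promoter windows of 300 bases on GRCm38.p6, with 250 bases before the start and 50 after it, were matched for 6 members. The promoter of Iigp1 was not searched, so the counts of windows below leave this member out. They were searched on both strands for TTCNNNGAA, the core of the gamma-activated site, and for GAAA, 2 bases of any kind and GAAA again, the core of the interferon-stimulated response element bound by IRF factors. The second core was found in 5 of the 6 windows, against 3.44% of 32851 windows of the same length, and the first in 4 of 6, against 8.30%. The Ifi47 window held neither set of letters. Each stretch runs 5′ to 3′ on the strand of its gene, and capitals mark the matches, which overlap each other in Irgm1 only. The 61-base stretches of the other 4 genes begin 65 to 108 bases before the start.
Irgm1, chr11:48871428-48871457, minus strand: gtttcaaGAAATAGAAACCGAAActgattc
Irgm2, chr11:58214882-58214942, plus strand: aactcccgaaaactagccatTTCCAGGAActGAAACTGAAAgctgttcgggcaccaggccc
Igtp, chr11:58199491-58199551, plus strand: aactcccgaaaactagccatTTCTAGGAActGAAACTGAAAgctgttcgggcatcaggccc
Tgtp1, chr11:48992294-48992354, minus strand: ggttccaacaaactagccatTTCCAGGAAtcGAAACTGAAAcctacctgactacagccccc
Tgtp2, chr11:49064253-49064313, minus strand: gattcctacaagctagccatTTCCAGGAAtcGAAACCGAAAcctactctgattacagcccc
The starts are those of the RefSeq table, and the printed spans of Irgm1, Irgm2 and Tgtp1 reach beyond them, so that their stretches lie within these spans. The Irgm1 stretch overlaps an exon of 1 annotated Irgm1 transcript, and the other 4 overlap no exon. The stretches of Irgm2 and Igtp differ at 2 bases, written Irgm2 first and counted from the 5′ end of the stretch, namely C24T and C54T. The cores in this pair are thus not separate finds. In the 4 stretches that hold both cores, the gamma-activated core is followed after 2 bases by the IRF core. All 4 also share the bases ctagccat directly before the gamma-activated core. Their cores are thus not separate finds either, and the counts of windows above are not counts of independent finds.

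After filtering, 7816 cells were kept at 18 months and 10910 at 2 months, with medians of 4371 and 8033 unique molecular identifiers (UMIs, each marking 1 captured transcript) and totals of 53597056 and 102618688. They fell into 34 clusters, of which 29 were given 1 of 18 class names from marker genes. The labels list the heart cells as lymphocytes, but the largest classes carried endothelial (Pecam1, Cdh5) and fibroblast (Col1a1, Pdgfra) markers, and 1 class of 146 cells at 18 months and 687 at 2 months carried cardiomyocyte markers (Tnnt2, Myh6). Every class name below means cells like that type by their markers. The clusters were made without the IRGs and other interferon-response genes. Of the barcodes, 42 occurred in both heart libraries. In the lymph node library 8961 cells with a single hashtag were kept, with a median of 2878 UMIs and a total of 34813992.

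IRG transcripts were found in every heart class of 50 or more cells in each library, and vascular endothelial cells had the highest summed level at both ages. Their 7 members summed to 430 UMIs per 1000000 UMIs of the class (CPM) at 18 months, against 595 CPM at 2 months. T cells came next on this scale with 252 CPM at 18 months and 233 CPM at 2 months. Endocardial cells had 240 CPM at 18 months, against 138 CPM at 2 months, and monocytes had 193 CPM at 18 months, against 133 CPM at 2 months. At the other end of the order, smooth muscle cells had 28.8 CPM at 18 months and 24.2 CPM at 2 months. Counting intervals of T cells and endocardial cells at 18 months overlapped, as did those of macrophages (124 CPM) and fibroblasts (118 CPM), so neither pair can be ordered. Erythroid cells, which are not known to use this family, gave 0 UMIs in 34 cells at 18 months, below a floor of 5.24 CPM set at 3 counts, and 7 UMIs in 1 of 9 cells at 2 months.

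**Figure D1:**
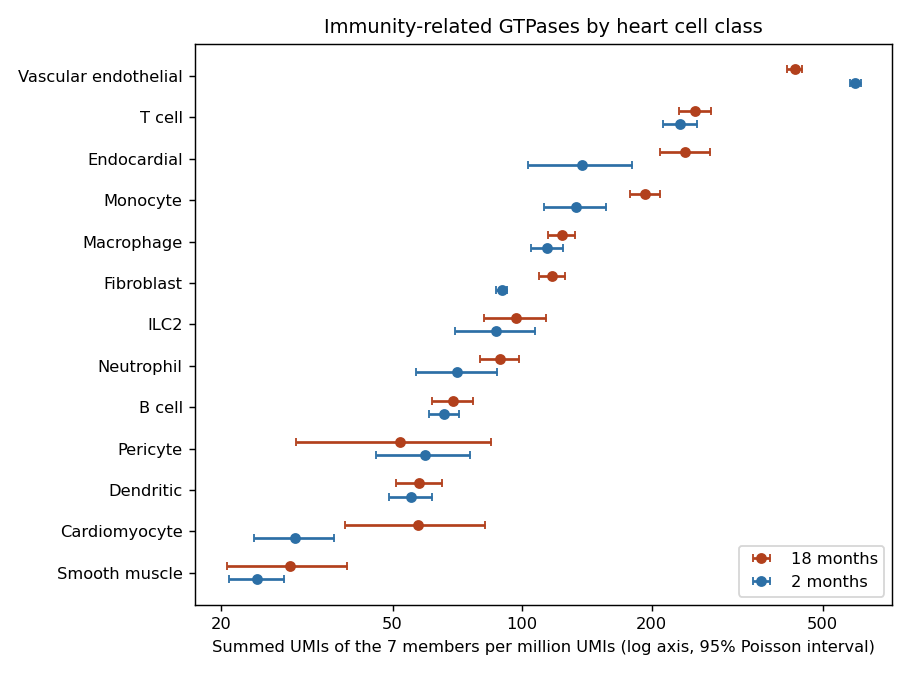
Summed UMIs of the 7 IRGs per 1000000 UMIs (log axis) in the 13 heart classes with at least 50 cells in each library, at 18 months (red) and 2 months (blue), with exact Poisson 95% intervals that cover counting error only. Vascular endothelial cells lie highest at both ages and are the class in which the 18-month value (430) lies clearly below the 2-month value (595).

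With 1 library per age, no test of age was possible, and animals and preparation cannot be told apart from age. Intervals here cover counting error only. A member was called higher or lower at 18 months where it had at least 20 UMIs over both libraries, a CPM ratio of at least 1.5-fold and a 95% interval of the ratio that left out 1. Of 91 pairs of member and class, 60 had enough UMIs, and 7 of them were called higher and 3 lower. Over all genes and the same 13 classes, 6.70% of pairs were called higher and 5.0% lower. The member sum was higher at 18 months in 11 classes and lower in 2, but 8 of the 13 intervals held a ratio of 1. The intervals lay above it in 4 classes (endocardial cells, monocytes, fibroblasts and cardiomyocytes) and below it in vascular endothelial cells.

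In vascular endothelial cells (2371 cells at 18 months and 2804 at 2 months, with median depths of 2337 and 2313 UMIs) all 7 members had a lower CPM at 18 months. For 5 of them the interval of the log2 ratio of 18 over 2 months lay below 0, as it did for 13.0% of the genes of this class. Igtp and Tgtp1 also passed the 1.5-fold rule, 2 of 7 members against 4.05% of all genes called lower, and no member was called higher, against 5.0% of all genes. The sum differed by −0.47 on the log2 scale (−0.54 to −0.40), short of 1.5-fold. The median log2 ratio over the members was −0.46, beside −0.007 over all genes of the class.

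Among the regulators, Igtp, which guards lipid droplets and endoplasmic reticulum membranes, fell to 42.6 CPM at 18 months, against 69.3 CPM at 2 months (log2 ratio −0.70, −0.92 to −0.49). Irgm1, the regulator of Golgi and lysosomal membranes, had 59.7 CPM at 18 months and 82.3 CPM at 2 months (−0.46, −0.65 to −0.28). Irgm2, another Golgi regulator, had 56.7 CPM at 18 months and 70.2 CPM at 2 months (−0.31, −0.50 to −0.11). All 3 regulators were thus lower with intervals below 0, and 1 of them by more than 1.5-fold.

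Among the effectors, Iigp1 stood at 195 CPM at 18 months (1246 UMIs) and 287 CPM at 2 months (2212 UMIs), a log2 ratio of −0.56 (−0.66 to −0.46). Tgtp1 fell to 8.46 CPM at 18 months (54 UMIs), against 14.7 CPM at 2 months (113 UMIs), a log2 ratio of −0.79 (−1.29 to −0.31). Its near-identical partner Tgtp2 had 31.5 CPM at 18 months and 35.5 CPM at 2 months, and this interval held 0 (−0.44 to 0.09). Ifi47 differed least, with 35.9 CPM at 18 months and 36.6 CPM at 2 months (−0.03, −0.29 to 0.23). The call of Igtp held under 13 of 13 alternatives in processing, with log2 ratios of −1.76 to −0.59. That of Tgtp1 held under 10 of 12 and was lost in cells thinned to 1000 UMIs and in cells with Y-linked UMIs.

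**Figure D2:**
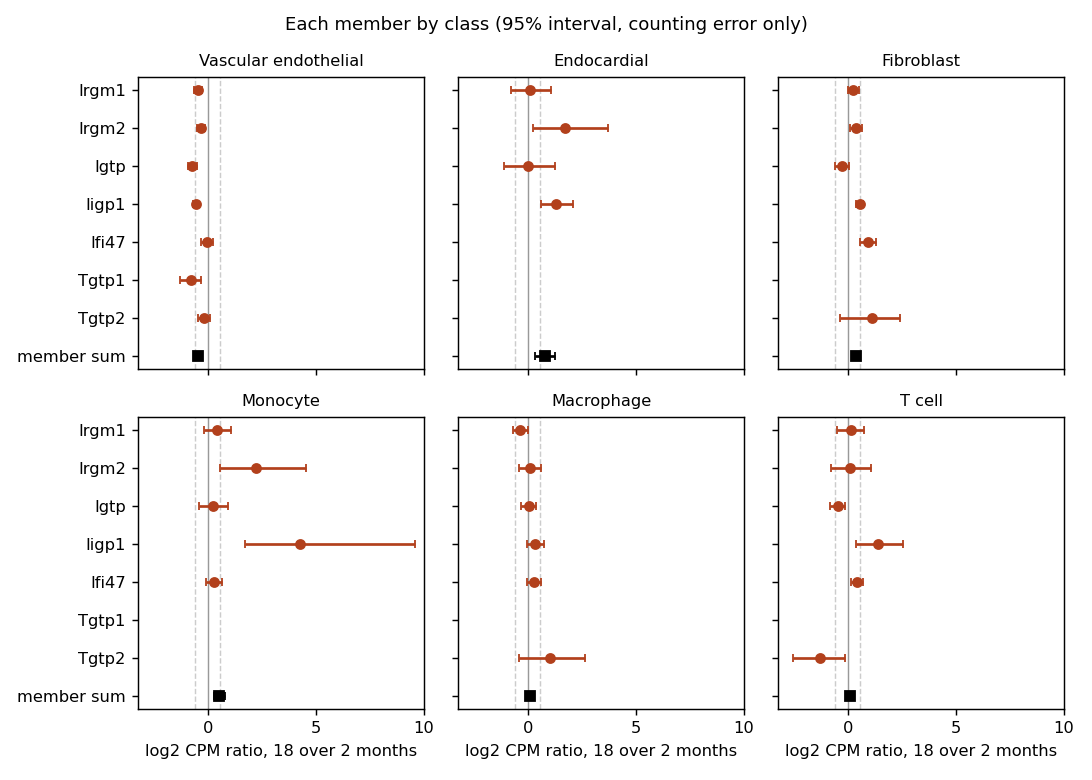
Log2 ratio of CPM, 18 over 2 months, for each IRG with at least 20 UMIs (red circles) and for the sum of the 7 (black squares) in 6 heart classes. Bars are exact 95% intervals from counting error, and dashed lines mark 1.5-fold. All 7 endothelial values lie below 0 (−0.79 to −0.03), whereas 5 of 6 fibroblast values lie above it.

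The lower endothelial sum was seen in each of the 5 endothelial clusters. Arterial-marker cells (Sema3g, Gja5) had 226 CPM at 18 months and 378 CPM at 2 months, and capillary-marker cells (Cxcl12, Btnl9) had 483 CPM at 18 months and 609 CPM at 2 months. Cells led by Lhx6 and Aplnr had 608 CPM at 18 months and 808 CPM at 2 months, and Apln cells had 349 CPM at 18 months and 451 CPM at 2 months. The shallow cluster led by Mcf2l and Ushbp1 had 420 CPM at 18 months and 673 CPM at 2 months. The log2 ratios ran from −0.75 to −0.34. Iigp1 set the arterial-marker cells apart from the rest, at 57.5 CPM at 18 months and 126 CPM at 2 months, while the Lhx6 and Aplnr cells had 335 CPM at 18 months and 449 CPM at 2 months. Ifi47 ran the other way among clusters, with 50.5 CPM at 18 months and 59.6 CPM at 2 months in arterial-marker cells, against 21.8 and 21.9 CPM in the Lhx6 and Aplnr cells.

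The sexes of the cells gave the same direction. Endothelial cells with Xist had an IRG sum of 461 CPM at 18 months and 714 CPM at 2 months, and cells with Y-linked UMIs had 383 CPM at 18 months and 492 CPM at 2 months. Most endothelial cells carried no hashtag, and these had 435 CPM at 18 months and 585 CPM at 2 months. Those under hashtag 12 had 499 CPM at 18 months (54 cells), and those under hashtag 10 had 997 CPM at 2 months (79 cells). Endothelial cells under hashtags 11 and 9 numbered fewer than 50 each and were not read.

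The share of endothelial cells with any IRG UMI was compared after each cell had been thinned to 1000 UMIs. It was 27.8% at 18 months (25.8 to 29.7, exact binomial, 2068 cells) and 32.8% at 2 months (30.9 to 34.7, 2451 cells), and unthinned it was 43.3% and 48.3%. The same thinned share was 4.05% at 18 months and 2.49% at 2 months in smooth muscle cells, and 0% of 34 erythroid cells at 18 months (upper limit 10.3%). Free RNA, estimated from markers of other lineages, could account for 9.56 CPM at 18 months and 9.16 CPM at 2 months of the endothelial sum. Members were found together: in cells thinned to 2000 UMIs, Igtp was detected in 17.1% of cells with Iigp1 and 4.76% of those without at 18 months, and in 20.7% and 8.51% at 2 months. Cells with at least 2 members made up 14.4% at 18 months and 19.8% at 2 months. The endothelial clusters, which differed in Iigp1, were pooled for this. Differences between clusters thus cannot be told apart from links within cells.

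**Figure D3:**
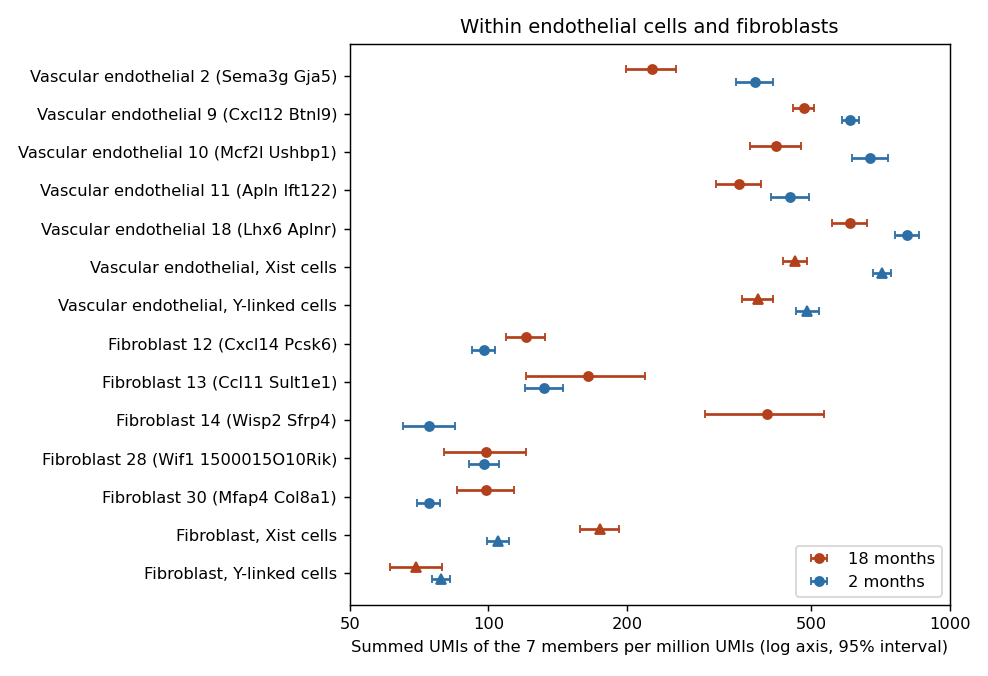
Summed UMIs of the 7 IRGs per 1000000 UMIs (log axis, exact Poisson 95% intervals) at 18 months (red) and 2 months (blue) in each endothelial and fibroblast cluster (circles) and in cells grouped by Xist or Y-linked UMIs (triangles). Endothelial values are lower at 18 months in all 5 clusters and both sexes. Fibroblast values are higher at 18 months in Xist cells (174 and 105) but not in Y-linked cells (69.8 and 78.9), where the interval of the log2 ratio held 0.

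Related genes were read from lists chosen with earlier results of these data known. The guanylate-binding proteins (GBPs), the larger interferon-induced GTPases that join IRGs at pathogen vacuoles, had 8 measured genes in endothelial cells, none of them called, with a median log2 ratio of −0.42. Gbp4 had 201 CPM at 18 months and 291 CPM at 2 months (−0.53), Gbp5 had 71.9 CPM at 18 months and 106 CPM at 2 months (−0.55), and Gbp7 had 267 CPM at 18 months and 352 CPM at 2 months (−0.40). Of 18 measured interferon signalling genes, Irf8, a transcription factor of the interferon response, rose to 27.9 CPM at 18 months, against 13.5 CPM at 2 months. Socs1, the inhibitor of JAK kinases, fell to 11.6 CPM at 18 months, against 20 CPM at 2 months. Irf1, which drives IRG transcription, had 146 CPM at 18 months and 179 CPM at 2 months (−0.29, −0.42 to −0.17). None of the 10 ATG8 conjugation genes was called (median −0.07).

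Some less studied IRG-family genes of the same list did not move with the 7 members in endothelial cells. Gm4951 rose to 18.5 CPM at 18 months, against 8.69 CPM at 2 months (log2 ratio 1.09, 0.64 to 1.54). F830016B08Rik rose to 15.4 CPM at 18 months, against 9.08 CPM at 2 months (0.76, 0.30 to 1.22). 9930111J21Rik1 fell to 7.05 CPM at 18 months, against 11.8 CPM at 2 months. Of the 20 measured type I interferon-stimulated genes, Mx1 and Zbp1 rose and the list median was −0.28. Thus 2 of the 7 measured other IRGs were called higher and 1 lower.

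Endocardial cells, which line the heart chambers, went the other way from vascular endothelial cells. Their sum rose to 240 CPM at 18 months (154 cells), against 138 CPM at 2 months (50 cells), a log2 ratio of 0.80 (0.36 to 1.26). Iigp1 rose to 123 CPM at 18 months (111 UMIs), against 49.3 CPM at 2 months (19 UMIs), and Irgm2 to 34.4 CPM at 18 months (31 UMIs), against 10.4 CPM at 2 months (4 UMIs). These were 2 of 4 measured members, against 8.0% of all genes of the class called higher and 9.68% lower, and Irgm1 (42.2 CPM at 18 months and 39.0 CPM at 2 months) and Igtp (26.6 and 26.0 CPM) were nearly level. Gbp7 rose to 142 CPM at 18 months, against 77.9 CPM at 2 months. The 5 richest cells held 38.4% of the IRG UMIs at 18 months and 49.1% at 2 months. The thinned share of cells with an IRG UMI was 14.97% at 18 months and 16.7% at 2 months, so it did not follow the CPM. Endocardial cells with Xist had 144 CPM at 18 months (105 to 193), an interval that held the 2-month value of the class, and those with Y-linked UMIs had 314 CPM (260 to 377). The 133 endocardial cells without a hashtag had 182 CPM at 18 months (152 to 216). At 2 months these groups held fewer than 50 endocardial cells and were not read.

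Fibroblasts (579 cells at 18 months and 3202 at 2 months) had an IRG sum of 118 CPM at 18 months and 89.6 CPM at 2 months (log2 ratio 0.39, 0.28 to 0.50). Intervals lay above 0 for 4 of 6 measured members, as they did for 17.8% of all genes of the class, and 1 member was called higher and none lower, against 6.80% and 2.86% of all genes. That member was Ifi47, which rose to 11.9 CPM at 18 months (82 UMIs), against 6.21 CPM at 2 months (269 UMIs; 0.94, 0.56 to 1.30). Iigp1 had 48.6 CPM at 18 months and 33.2 CPM at 2 months (0.55, 0.38 to 0.72), whereas Igtp had 12.5 CPM at 18 months and 14.8 CPM at 2 months (−0.24, −0.58 to 0.08). The higher sum at 18 months was not seen in all fibroblasts. In cells with Xist it was 174 CPM at 18 months and 105 CPM at 2 months (0.73, 0.57 to 0.89). In cells with Y-linked UMIs it was 69.8 CPM at 18 months and 78.9 CPM at 2 months, and this interval held 0 (−0.18, −0.38 to 0.02). In those Y-linked cells the log2 ratio of Ifi47 was −0.16, and its call was lost there and in cells thinned to 1000 UMIs.

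Fibroblast clusters also differed in size of the difference. The Wisp2 and Sfrp4 cluster had 401 CPM at 18 months from 11 cells and 74.4 CPM at 2 months from 220 cells (log2 ratio 2.43, 1.95 to 2.89). The largest cluster at 18 months, led by Cxcl14 and Pcsk6, had 120 CPM at 18 months and 97.6 CPM at 2 months, and the Wif1 cluster had 98.7 CPM at 18 months and 97.9 CPM at 2 months. Without the 11-cell cluster the fibroblast sum kept a log2 ratio of 0.31, without the 5 richest cells of each library 0.16, and in cells thinned to 1000 UMIs it was −0.077. The thinned share of fibroblasts with an IRG UMI was 7.36% at 18 months and 7.92% at 2 months.

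Among T cells (306 at 18 months and 276 at 2 months) the sum hardly differed, at 252 CPM at 18 months and 233 CPM at 2 months (log2 ratio 0.12, −0.07 to 0.30). Ifi47 had 131 CPM at 18 months and 97.2 CPM at 2 months (0.43, 0.16 to 0.71), and Igtp had 61.0 CPM at 18 months and 83.3 CPM at 2 months (−0.45, −0.79 to −0.11). Iigp1 rose to 15 CPM at 18 months (32 UMIs), against 5.66 CPM at 2 months (11 UMIs). It was the single member called higher of 6 measured, beside 5.57% of all genes of the class. Tgtp2 fell to 4.69 CPM at 18 months (10 UMIs), against 11.3 CPM at 2 months (22 UMIs), the single member called lower, beside 3.49% of all genes. The call of Tgtp2 held under only 7 of 16 alternatives and that of Iigp1 under 10 of 15. Ifng itself, the gene of interferon gamma, had 83.0 CPM at 18 months and 89.0 CPM at 2 months in T cells (−0.10, −0.41 to 0.21).

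The T cells fell into 2 clusters with opposite differences. The larger, led by Dapl1 (261 cells at 18 months and 259 at 2 months), had an IRG sum of 278 CPM at 18 months and 222 CPM at 2 months (0.32, 0.13 to 0.52). The smaller, with the gamma delta T cell genes Trdc and Cd163l1 (45 cells at 18 months and 17 at 2 months), had 117 CPM at 18 months and 367 CPM at 2 months (−1.65, −2.28 to −1.03). Its Igtp level was 29.2 CPM at 18 months and 159 CPM at 2 months.

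In monocytes (312 cells at 18 months and 74 at 2 months) the IRG sum was 193 CPM at 18 months and 133 CPM at 2 months (log2 ratio 0.54, 0.27 to 0.81). Irgm2 rose to 12.8 CPM at 18 months (40 UMIs), against 2.74 CPM at 2 months (3 UMIs; 2.23, 0.58 to 4.56). Iigp1 rose to 17.6 CPM at 18 months (55 UMIs), against 0.913 CPM at 2 months (1 UMI; 4.27, 1.73 to 9.60), but 98.2% of its 18-month UMIs came from 5 cells. These were 2 of 5 measured members, beside 7.78% of all genes of the class, and none was lower, beside 5.52%. The share of monocytes with an IRG UMI was 11.6% at 18 months (8.24 to 15.7) and 8.11% at 2 months (3.03 to 16.8) in cells thinned to 1000 UMIs, with overlapping intervals. Unthinned it was 47.8% at 18 months and 60.8% at 2 months, where median depths were 10448 and 14098 UMIs, so its direction turned with the thinning. The call of Irgm2 was lost between hashtags 11 and 9. That of Iigp1 was lost in cells thinned to 1000 UMIs and between hashtags 12 and 9, with log2 ratios down to 0.25. Ifi47 in neutrophils rose to 19.9 CPM at 18 months (78 UMIs), against 6.58 CPM at 2 months (8 UMIs; 1.60, 0.55 to 2.86), 1 of 5 measured members beside 6.74% of all genes, and none was lower, beside 10.7%. This call was lost in cells thinned to 1000 UMIs and between hashtags 11 and 10, with log2 ratios down to 0.18. In neutrophils, 3 of 6 measured GBPs rose as well, among them Gbp2 with 71.7 CPM at 18 months and 18.1 CPM at 2 months.

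Macrophages showed no called member among 6 measured, beside 4.19% of all genes called higher and 4.55% lower. Their sum was 124 CPM at 18 months and 114 CPM at 2 months (0.11, −0.05 to 0.28). The hashtags gave 106 and 141 CPM at 18 months and 65.7 and 131 CPM at 2 months, so the hashtags of one library differed by more than the libraries did. What sets the hashtags of a heart library apart is not stated, and they differed in makeup, with 850 B cells and 106 macrophages under hashtag 9 and 59 and 418 under hashtag 10. B cells had 69.1 CPM at 18 months and 65.9 CPM at 2 months, dendritic cells 57.7 CPM at 18 months and 55.2 CPM at 2 months, and group 2 innate lymphoid cells 96.7 CPM at 18 months and 87.0 CPM at 2 months. No member was called in any of these 3 classes. Of all genes, 18.3% were called higher and 6.55% lower in B cells, 5.23% and 7.30% in dendritic cells, and 3.05% and 4.78% in the innate lymphoid cells.

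Cardiomyocytes had a sum of 57.4 CPM at 18 months and 29.6 CPM at 2 months (0.95, 0.31 to 1.57), from 30 and 89 UMIs. Free RNA could account for 13.9 CPM of it at 18 months and 6.47 CPM at 2 months, and the 5 richest cells held 66.7% of the IRG UMIs at 18 months and 48.3% at 2 months. Only Irgm1 and Iigp1 had enough UMIs there, and neither was called, beside 7.10% of all genes higher and 2.38% lower. Pericytes had 52.1 CPM at 18 months and 59.4 CPM at 2 months (−0.19, −1.08 to 0.62). Neither the 1 member measured in pericytes nor the 4 measured in smooth muscle cells were called. In pericytes 3.54% of all genes were called higher and 3.23% lower, and in smooth muscle cells 5.12% and 2.04%.

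Over the 26 sums of class and library, the members fell into different patterns of distribution. Log2 CPM of Irgm1 and Irgm2 had a Pearson r of 0.80, that of Irgm2 and Iigp1 0.80 and that of Tgtp1 and Tgtp2 0.77, while Iigp1 and Ifi47 had −0.04. These points share libraries, depth and free RNA, so the values are descriptions. Iigp1 was highest in endothelial cells (195 CPM at 18 months and 287 CPM at 2 months), whereas Ifi47, among these 13 classes, was highest in T cells (131 CPM at 18 months and 97.2 CPM at 2 months) and in monocytes (94.2 CPM at 18 months and 76.7 CPM at 2 months). Natural killer cells, too few at 2 months to be among the 13 (76 cells at 18 months and 31 at 2 months), had 148 CPM of Ifi47 at 18 months and 120 CPM at 2 months. The 10 genes whose distribution was most like that of the member sum, among 8253 ranked, were Rnf213 (r = 0.90), Gbp5, Gbp9, Prkch, Nras, Herc6, Wdr37, Rps6ka3, Tpst2 and Lgals9 (r = 0.82). Rnf213 and Herc6 encode ubiquitin ligases of the interferon response.

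In the lymph node pool all 7 members were found in each of 9 T cell states, with sums of 457 to 1097 CPM. Type 17 cells (Il17re), whose leading genes also held Tcrg-C1 and Tcrg-V4 of the gamma delta T cell receptor and Zbtb16, had 1097 CPM (1022 to 1176 from counting, 207 cells), regulatory T cells 860 CPM (829 to 892, 1163 cells), naive-like CD8 cells 825 CPM (801 to 850, 816 cells) and memory CD4 cells 823 CPM (783 to 864, 660 cells). The last 3 had overlapping intervals. Naive-like CD4 cells followed with 702 CPM (661 to 744). Their raised markers were Lef1, Ccr7, Igfbp4 and Tcf7, without Cd4, so the CD4 part of this name is uncertain. Virtual memory CD8 cells had 535 CPM (513 to 556), Gzmk T cells 482 CPM (460 to 505), T follicular helper cells 475 CPM (444 to 507) and cycling cells 457 CPM (429 to 486). Over hashtag samples with at least 10 cells, each pair of neighbouring states overlapped, for example 419 to 1526 CPM in type 17 cells and 587 to 1131 CPM in regulatory T cells. After thinning to 1000 UMIs, 56.1% of type 17 cells and 28.8% of cycling cells had an IRG UMI. The clusters without a name held 31.3% of the cells.

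**Figure D4:**
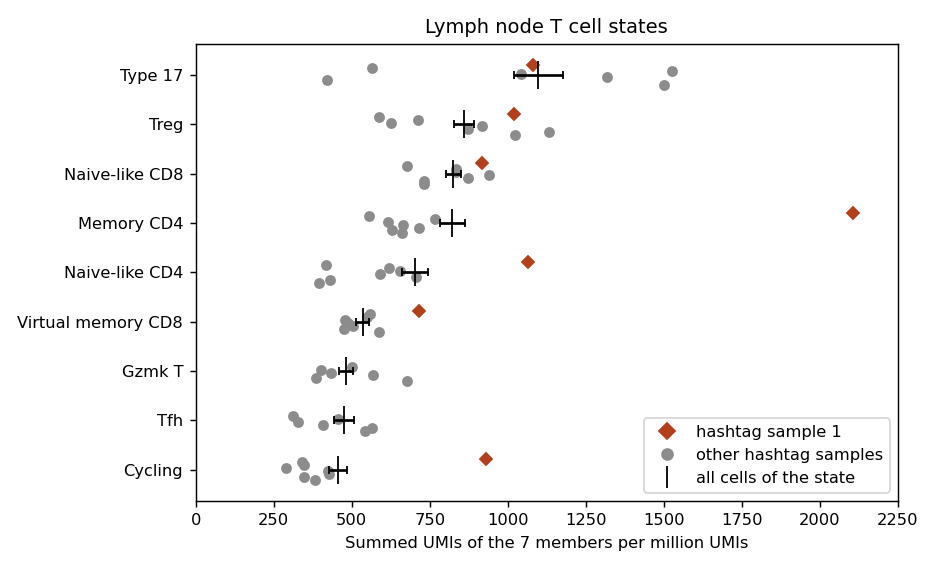
Summed UMIs of the 7 IRGs per 1000000 UMIs in 9 lymph node T cell states. Points are hashtag samples with at least 10 cells of the state, and black ticks with bars are all cells of the state with an exact Poisson 95% interval. Hashtag sample 1 (red) lies far right of the others in memory CD4 cells (2108 against 554 to 767) and cycling cells (929 against 289 to 426).

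Each state was set against all other T cell states within each hashtag sample, and a member was counted where every sample gave the same direction. The states were made without these genes. Cells of unnamed clusters stood on neither side. The largest of these clusters scored best for regulatory T cells (722 cells) and naive-like CD8 cells (633 cells). Regulatory T cells had more Iigp1 (79.2 CPM, against 20.3 CPM in the other states; log2 ratio 1.97) and more Irgm1 (90.9 CPM, against 65.5 CPM) in 8 of 8 samples, 2 of 7 members beside 15.5% of all genes higher in every sample. By sample, Iigp1 in regulatory T cells had a lowest value of 26.7 CPM, a median of 77.8 CPM and a highest of 125 CPM. Igtp was higher in 7 of 8 samples (194 CPM, against 102 CPM).

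Naive-like CD8 cells had more of both Irgb6 genes in 8 of 8 samples, 2 of 7 members beside 3.04% of all genes higher in every sample. As these near-identical genes have an uncertain split of reads, here and in the cycling cells below, they are not separate observations. Tgtp2 had 154 CPM there, against 84.7 CPM in the other states, and Tgtp1 31.4 CPM, against 13.1 CPM. Virtual memory CD8 cells, named for an antigen-inexperienced memory-like state, had less of 4 of 7 members in 8 of 8 samples, beside 18.7% of all genes lower. These were the 3 regulators and Iigp1. The class may be mixed. At resolutions 0.5 and 2 its name went to 174 cells led by Gzma and Ncr1, without Cd8a or Cd8b1 among their raised markers. Igtp had 55.5 CPM, against 127 CPM in the other states, Irgm1 45.4 CPM, against 74.0 CPM, and Irgm2 9.80 CPM, against 21.7 CPM. Iigp1 was nearly undetected, with a UMI in 0.762% of 656 cells (1.11 CPM, against 34.1 CPM). Ifi47, in contrast, had 343 CPM in virtual memory cells, against 318 CPM in the other states, and was higher in 5 of 8 samples.

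In cycling cells Ifi47, Tgtp1 and Tgtp2 were lower in 8 of 8 samples, beside 13.7% of all genes, with Tgtp2 at 33.8 CPM, against 106 CPM in the other states. In Gzmk T cells Irgm2, Igtp and Tgtp1 were lower in 6 of 6 samples with enough cells, beside 10.5% of all genes, with Igtp at 53.2 CPM, against 125 CPM. T follicular helper cells had less Ifi47 in 6 of 6 samples, beside 8.0% of all genes, at 183 CPM, against 334 CPM. No member had the same direction in every sample in type 17, memory CD4 or naive-like CD4 cells. Of all genes, 5.45% were higher and 6.74% lower in every sample in type 17 cells, 4.86% and 4.29% in memory CD4 cells, and 2.0% and 4.86% in naive-like CD4 cells.

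Members were found together in lymph node cells as well. Hashtag samples were pooled for this, so differences between samples cannot be told apart from links within cells. In cells thinned to 2000 UMIs, Ifi47 was detected in 61.1% of regulatory T cells with Igtp and 38.0% of those without, and in 73.9% and 38.9% of type 17 cells. In T follicular helper cells the order was turned, with 22.6% of cells with Igtp and 31.4% of those without. Over the 9 states, among 8012 genes ranked, the 10 most like the member sum were Trub1 (r = 0.92), Etv3, Jun, Ctu2, Rara, Sema4b, Gbp8 (r = 0.89), Actr6, Slfn8 and Rrad (r = 0.89). With 9 points from 1 library, these values are descriptions.

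Hashtag sample 1 stood apart from the other 7. Over all T cell states its IRG sum was 1022 CPM, and hashtag samples 2 to 8 had 573, 680, 646, 650, 645, 498 and 671 CPM. All 7 members were highest in this sample, as were 10.3% of all genes. Irgm1 had 123 CPM there and 48.5 to 72.1 CPM in the others, Igtp 189 CPM and 74.6 to 121 CPM, and Ifi47 441 CPM and 243 to 328 CPM. Iigp1 had 57.9 CPM in hashtag sample 1 and 7.11 to 31.7 CPM in the others. Hashtag sample 7 was lowest for 5 members, as it was for 16.9% of all genes.

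Other interferon genes also stood high in hashtag sample 1. The type I interferon-stimulated genes summed to 4750 CPM there and 1027 to 1943 CPM in the others, and the GBPs to 573 CPM and 309 to 372 CPM. The ATG8 conjugation genes did not, at 813 CPM and 779 to 1014 CPM. The part of these other genes, of cell makeup and of handling in the high IRG values of hashtag sample 1 was not tested. Without that sample the sum was 659 CPM in memory CD4 cells, 544 CPM in naive-like CD4 cells and 372 CPM in cycling cells.

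**Figure D5:**
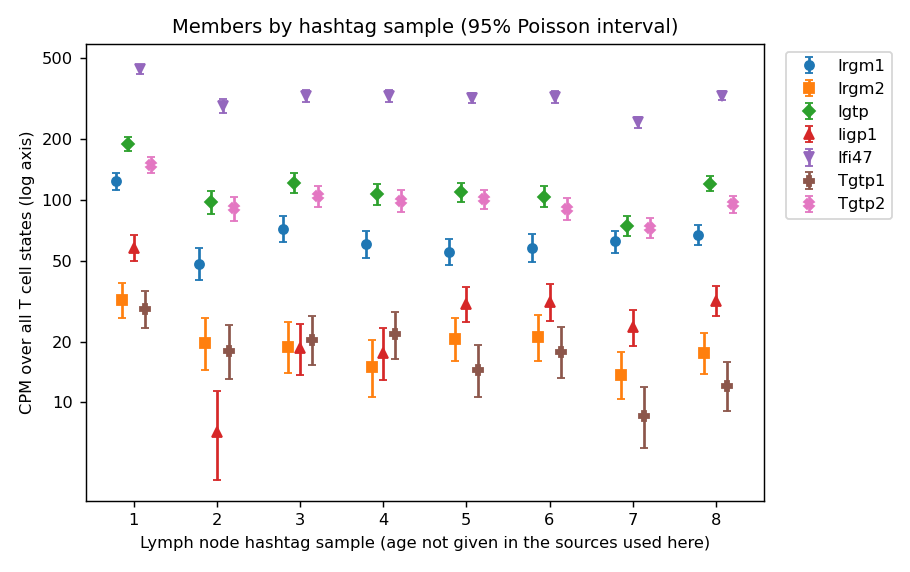
CPM of each IRG over all lymph node T cell states (log axis) in the 8 hashtag samples, with exact Poisson 95% intervals. Hashtag sample 1 has the highest value for all 7 genes, for example 441 CPM of Ifi47 against 243 to 328 CPM in the others; values of different genes are not to be compared.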

How the data were processed

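Gene expression was measured in 3 single-cell libraries. The authors deposited raw UMI counts per gene and barcode, made with Cell Ranger 3.1.0 on mm10 (GRCm38) per the submitters' processing notes. The deposited counts were kept for cells with at least 200 genes and at most 15% (heart) or 10% (lymph node) mitochondrial UMIs. Heart doublets called by Scrublet in Scanpy 1.11.5 (219 at 18 months and 478 at 2 months) were left out. Scrublet marked 0 of 12804 lymph node cells and did not work there, so doublets were removed only as barcodes with several hashtags (2768), and 1075 barcodes without a hashtag were also left out.

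Cells were clustered (2000 variable genes, 30 principal components, Leiden resolution 1, igraph 0.11.9) without IRGs, other interferon-response, MHC and Y-linked genes and Xist. Clusters were named from marker lists where at least 3 markers were raised and no other lineage led. The limits for naming were set after the clusters were seen, and 7.52% of heart cells at 18 months, 5.49% at 2 months and 31.3% of lymph node cells stayed unnamed. Rebuilt names may differ from those of the study.

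UMIs were summed per class and library and given per 1000000 UMIs of the class (CPM). Intervals are exact Poisson for CPM, exact binomial for shares and exact conditional binomial for ratios (SciPy 1.17.1), all at 95%, and cover counting error only. The ratio and its calls were run on simulated Poisson counts, which is the model that the intervals assume. That run could not show how the intervals fare where UMIs gather in few cells. Shares were compared in cells thinned to 1000 UMIs. Free RNA was estimated as the median ratio of other lineages' markers in a class to their share in the library. Likeness was Pearson's r of log2(CPM + 1) over sums. Every member was named in every class and state of at least 50 cells. The members and gene lists were chosen with earlier results of these data known. Lymph node T cell receptor data were not used here.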

Additional observations from a re-analysis of the deposited data

Results flagged for a closer look

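In the lymph node pool, hashtag sample 1 lay farther from the other hashtag samples than Dixon's 95% limit in 10 of 17 groups of values checked. The limit was that for the number of samples in the group (6 to 8). Chance puts about 1 in 20 unrelated groups past it. The groups here share cells, and the sums hold the single genes, so this share is no yardstick for the 10. The IRG sum of hashtag sample 1 was 1022 CPM over all T cell states, 2108 CPM in memory CD4 cells, 1064 CPM in naive-like CD4 cells, 929.5 CPM in cycling cells and 716.4 CPM in virtual memory CD8 cells. Of single genes over all T cell states, Irgm1 had 123.4 CPM, Irgm2 32.13 CPM, Igtp 188.6 CPM, Ifi47 441.2 CPM and Tgtp2 149.5 CPM in that sample. Iigp1 and Tgtp1 did not pass the limit.

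In the heart, the log2 ratio of the IRG sum, 18 over 2 months, had opposite signs in vascular endothelial cells and in 4 other classes, with intervals that left out 0 on both sides. The endothelial ratio minus that of cardiomyocytes was −1.424, minus that of endocardial cells −1.27, minus that of monocytes −1.005 and minus that of fibroblasts −0.8616. The ratio of the small T cell cluster minus that of the large one was −1.975. With 1 library per age, none of these differences was tested.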

How the results depend on the processing

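No paired analysis was possible because there was 1 library per age and replicate numbers came from accession order. The endothelial IRG sum kept a log2 ratio below 0 under every alternative run, from −0.9997 (hashtag 12 against 10) to −0.36 (Y-linked cells); it was −0.63 in Xist cells and −0.37 in cells thinned to 1000 UMIs. Over the heart, 649 of 760 values of single members kept their place, 110 moved by more than their counting interval and 1 reversed (fibroblast Ifi47, −0.16 in Y-linked cells). Only a called member could count as reversed. Uncalled members that changed sign stand among the kept and moved values, for example B cell Irgm1 (0.22, with alternatives from −1.25 to 0.63). In the lymph node 694 of 805 kept it and 111 moved. TMM scaling shifted all genes by 0.24 in B cells (sum −0.17) and 0.14 in cardiomyocytes, on the log2 scale. The causes of the moves below were not tested.

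Heart sums as log2 ratios moved as follows. Thinned to 1000 UMIs: B cells −0.21, cardiomyocytes 2.09, fibroblasts −0.077, monocytes 0.90. Authors' cell filter (at most 8% mitochondrial and 15000 UMIs): cardiomyocytes 1.69, dendritic cells −0.38, fibroblasts 0.27. Xist cells: B cells 0.50, fibroblasts 0.73. Y-linked cells: fibroblasts −0.18, macrophages −0.13, smooth muscle −0.46. Hashtag 11 against 9: B cells −0.14, macrophages 0.69. Hashtag 11 against 10: macrophages −0.30, neutrophils 1.01, T cells −0.31. Hashtag 12 against 9: B cells 0.33, macrophages 1.10, T cells 0.39. Hashtag 12 against 10: B cells 0.57, dendritic cells −0.50, neutrophils 1.14. Resolution 0.5: dendritic cells 0.82. Resolution 2: macrophages 0.35. Fibroblasts with clusters weighted equally had 0.26 and without the 5 richest cells 0.16. T cells without their small cluster, an alternative chosen after seeing the data, had 0.32; leaving out barcodes shared by both libraries, chosen likewise, moved no sum. At a minimum of 50 UMIs, 4 member calls were higher in place of 7.

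Shares of cells with an IRG UMI, 18 minus 2 months, in percentage points, moved without thinning to −13.47 in B cells, 8.46 in dendritic cells, −13.05 in monocytes and −8.97 in neutrophils. Thinned to 2000 UMIs they were 2.23 in fibroblasts, −5.44 in monocytes and −8.81 in endothelial cells.

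Lymph node sums in CPM moved as follows. Authors' cell filter: cycling 549, naive-like CD4 750.5. Unassigned and multiple hashtags kept: Gzmk T 506. Thinned to 1000 UMIs: Gzmk T 457, memory CD4 764, naive-like CD4 842, regulatory 914. Resolution 0.5: Gzmk T 572, naive-like CD4 646, naive-like CD8 707, follicular helper 671, regulatory 824, type 17 909, virtual memory 568. Some names covered other cells at this resolution. Type 17 then named 368 cells led by Cd209b and Il22ra2, and virtual memory named 174 cells led by Gzma and Ncr1. Resolution 2: naive-like CD4 964, naive-like CD8 789, virtual memory 570 (174 cells, likewise led by Gzma and Ncr1). Without the 5 richest cells: cycling 367, memory CD4 718, naive-like CD4 620, follicular helper 434, type 17 941. Leaving out 1 hashtag sample at a time gave 372 to 473 in cycling cells, 423 to 606 in Gzmk T, 659 to 901 in memory CD4, 544 to 775 in naive-like CD4, 798 to 861 in naive-like CD8, 410 to 492 in follicular helper, 831 to 896 in regulatory, 1034 to 1180 in type 17 and 521 to 546 in virtual memory cells.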

Other observations

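The lymph node library also held B cells, which the sort for T cells would remove, and which stood outside the comparison of T cell states. Their IRG sum was 332 CPM over 685 cells, with hashtag samples from 269 to 402 CPM. Free RNA could account for 85.6 CPM of it. Some unnamed clusters were led by genes of other cell types and also stood outside that comparison. Examples were 257 cells with Fscn1 and Ccl22, 188 with Marco and Timd4, and 65 with Siglech.

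Irf1, which drives IRG transcription, did not follow the order of Iigp1 over the T cell states. It had 278 CPM in regulatory T cells and 185 CPM in virtual memory CD8 cells, the states with the highest and lowest Iigp1. Gzmk T cells had 269 CPM of Irf1 with 9.36 CPM of Iigp1, memory CD4 cells 184 CPM with 67.3 CPM, and cycling cells 112 CPM, the lowest of the 9 states, with 29.1 CPM. Ifng itself had 4.95 CPM in regulatory T cells and 2.90 CPM in virtual memory CD8 cells, while T follicular helper cells had 25.4 CPM. These values were chosen after the levels of Iigp1 were known, and were not tested.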
